A study of Macaca mulatta with 12 samples.

Results

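The miR-183, miR-96 and miR-182 cluster is a group of 3 pre-miRNAs, mml-mir-183, mml-mir-96 and mml-mir-182, that lie beside each other in the genome. They were taken by name from the 832 pre-miRNAs with a usable sequence in the study's annotation of Macaca mulatta (rhesus macaque), and they carry 4 of its 1219 distinct mature sequences. These are miR-183-5p, miR-183-3p, miR-96-5p and miR-182-5p. Small RNAs were sequenced from 8 tissues in 12 profiles, 2 each of kidney, muscle, small intestine and large intestine and 1 each of liver, lung, occipital lobe and spinal cord. All of the tissues came from wild-type, untreated macaques at an age of 36 months. The methods speak of 2 animals, but which animal gave which profile is not given, so p-values here measure the spread between these profiles. The profiles held between 22118095 and 25579064 valid reads, so that 1 read was worth 0.391 to 0.452 RPTM (reads per 10000000 valid reads), the unit of abundance used here.

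A miRNA is cut from 1 arm of a hairpin-shaped precursor, the 5p arm before the loop or the 3p arm after it, and is loaded into an Argonaute protein. It then represses mRNAs that pair with its bases 2 to 8, the seed. The 3 cluster miRNAs are transcribed together in vertebrates and are known best from sensory cells, such as the hair cells of the inner ear and the photoreceptors of the retina, and from sensory neurons. Mutations in the seed of miR-96 cause hereditary hearing loss. The cluster is also found in many epithelia and is often raised in carcinomas.

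The mature sequences are shown first because the 3 miRNAs differ in few bases of the seed, and because a shift of 1 base at the 5′ end changes it. Capitals mark bases 2 to 8, and miR-1271-5p is included as a relative with the seed of miR-96-5p.
mml-miR-183-5p: uAUGGCACugguagaauucacug
mml-miR-96-5p: uUUGGCACuagcacauuuuugc
mml-miR-182-5p: uUUGGCAAugguagaacucaca
mml-miR-1271-5p: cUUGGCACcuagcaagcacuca
Over the first 22 bases, aligned from the 5′ end without gaps, miR-183-5p and miR-182-5p had the same base at 18 positions, miR-183-5p and miR-96-5p at 13, and miR-96-5p and miR-182-5p at 12. Within bases 2 to 8 the order differed, as miR-96-5p shared 6 of the seed bases with each of the other two and miR-183-5p and miR-182-5p shared 5. The seed of miR-182-5p was found under 1 mature name of the annotation, its own. That of miR-183-5p also belonged to miR-891b-3p, which had 0 reads in the 12 profiles. The exactly matching reads of the 3 hairpins matched no other pre-miRNA of the annotation, so that none of their counts was shared with a copy. In the T2T-MMU8v2.0 annotation of RefSeq, which is another build than that of the study and is used here for gene order only, MIR182, MIR96 and MIR183 are adjacent, and the nearest genes with established symbols are NRF1 on the side of MIR182 and UBE2H on the side of MIR183.

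The labels of the tissues were checked with marker miRNAs, among which none was chosen for kidney. The sum of miR-9-5p, miR-124a-3p and miR-219-5p was at least 265540 RPTM in occipital lobe and spinal cord and at most 992 RPTM in the other profiles. The liver marker miR-122a-5p was at 7320 RPTM in liver and at most 4.37 RPTM elsewhere. The 5 muscle markers were all highest in the muscle profiles, such as miR-1-3p with 940 and 527 RPTM against at most 28.2 RPTM elsewhere, and miR-499-5p with 536 and 1061 RPTM against at most 57.3 RPTM. The sum of the intestine markers miR-192-5p, miR-194-5p and miR-215-5p was 2063770 and 1645040 RPTM in small intestine. It was 1002390 and 452851 RPTM in large intestine, 1214180 RPTM in liver, and 255691 and 279070 RPTM in kidney. These markers thus did not set large intestine apart from liver. The summed level of 4 miRNAs of epithelial cells (miR-200a-3p, miR-200c-3p, miR-141-3p and miR-429-3p) lay between 2250 and 11418 RPTM in kidney, intestine and lung. It was 669 RPTM in liver, 179 and 57.1 RPTM in the muscle profiles, 11.3 RPTM in spinal cord and 23.9 RPTM in occipital lobe. Since these are bulk tissues, fewer cells of a type and less RNA per cell cannot be told apart.

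The 3 miRNAs of the 5p arms were found at very different abundances but were distributed over the tissues alike. miR-182-5p was by far the most abundant member in every profile, miR-183-5p followed, and miR-96-5p was the least abundant. The lowest levels were found in liver and occipital lobe, and the profiles of small intestine, kidney, lung, large intestine, spinal cord and muscle all lay above them.

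For miR-182-5p, the abundance was 97610 and 57522 RPTM in the small intestine profiles, 28412 and 64982 RPTM in kidney, and 44963 and 25905 RPTM in large intestine. It was 42799 RPTM in lung, 45109 RPTM in spinal cord, and 13992 and 41128 RPTM in muscle. Only 2187 RPTM were found in liver and 1897 RPTM in occipital lobe. These last profiles stand clearly below the other 10, and the highest profile was 51.4 times the lowest.

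Per valid read, miR-183-5p was highest in spinal cord, with 1208 RPTM. The small intestine profiles had 875 and 488 RPTM, the kidney profiles 354 and 657 RPTM, lung 453 RPTM and the large intestine profiles 412 and 218.9 RPTM. In muscle it was at 126 and 447 RPTM, in occipital lobe at 18.7 RPTM and in liver at 12.1 RPTM. The spread from the lowest to the highest profile was 99.9-fold, and liver and occipital lobe were again the lowest.

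miR-96-5p had few reads in all tissues. Small intestine had 79.0 and 91.5 RPTM, muscle 11.3 and 77.6 RPTM, spinal cord 46.4 RPTM and lung 44.2 RPTM. In kidney 21.9 and 38.8 RPTM were found, in large intestine 38.4 and 15.3 RPTM, and in liver 8.07 RPTM. The single exactly matching read in occipital lobe is worth 0.435 RPTM, which is under the 3 reads taken as the floor, so that folds against this profile are very uncertain.

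**Figure D1:**
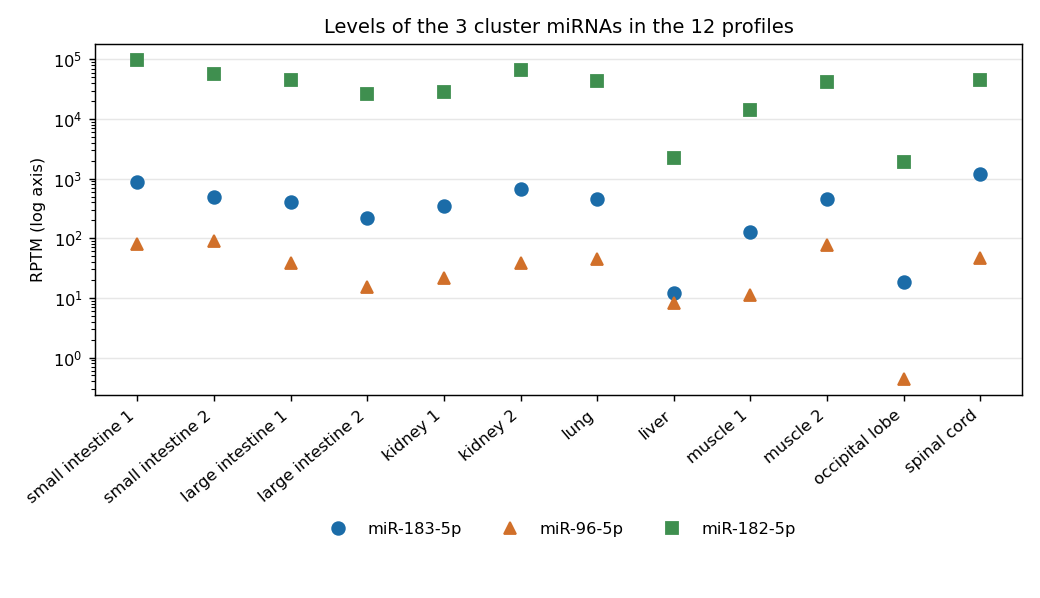
Abundance of miR-183-5p (circles), miR-96-5p (triangles) and miR-182-5p (squares) in each of the 12 profiles, in RPTM on a log axis. The 3 miRNAs keep their order in every profile, and the points for liver and occipital lobe lie below the rest, at 2187 and 1897 RPTM for miR-182-5p.

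The order of the tissues was held against the difference between the 2 profiles of a tissue. This difference was largest in muscle, where muscle 2 exceeded muscle 1 by 2.94-fold for miR-182-5p, 3.56-fold for miR-183-5p and 6.89-fold for miR-96-5p. In the order of mean levels of miR-182-5p, small intestine came first, followed by kidney, spinal cord, lung, large intestine, muscle, liver and occipital lobe. Only the 12.6-fold step from muscle to liver exceeded the spread within pairs, and the other neighbours in the order did not differ beyond it. For miR-183-5p, spinal cord came first, before small intestine, kidney, lung, large intestine, muscle, occipital lobe and liver, and only the 15.3-fold step from muscle to occipital lobe exceeded the spread. For miR-96-5p the order was small intestine, spinal cord, muscle, lung, kidney, large intestine, liver and occipital lobe, with 1 step beyond the spread, of 18.6-fold from liver to the single read of occipital lobe. These orders are of levels per valid read, without the scaling factors (TMM) of the tests below. The factors were 2.486 in spinal cord and 2.265 in occipital lobe, beside 0.814 and 0.676 in small intestine and 0.836 and 0.623 in kidney. Scaling by them lowers the neural profiles against the others, so that the place of spinal cord holds per valid read only. The blood markers miR-451-5p, miR-144-3p and miR-223-3p also differed between the muscle profiles, with summed levels of 336 RPTM in muscle 1 and 5254 RPTM in muscle 2, while the epithelial sum went the other way. Their part in the difference between the muscle profiles was not tested.

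Among the neural samples, the cluster separated spinal cord from occipital lobe. Per valid read, miR-183-5p was 64.7-fold higher in spinal cord (95% counting interval 47.9 to 87.3) and miR-182-5p 23.8-fold higher (23.1 to 24.5). For miR-96-5p, 111 reads stood against 1, a ratio of 107 with an interval from 18.7 to 609. There is 1 profile of each, so that the difference between the tissues has no replicate check, and the intervals cover counting error only, as no molecular identifiers were used and reads can be copies of 1 molecule. On the log2(RPTM + 1) scale, 2.7% of the 371 tested miRNAs were at least 16-fold higher in spinal cord, and all 3 members were among them. With reads of any 3′ end and with tails, miR-96-5p had 130 reads against 9, a ratio of 13.9 (7.16 to 26.99) and a difference of 3.50 on this scale, which is under 16-fold, so that its place among them rests on the 1 exactly matching read. The other members stayed past 16-fold, at 54.3-fold for miR-183-5p and 27.3-fold for miR-182-5p. With exactly matching reads, the differences were 5.94 for miR-183-5p, 5.05 for miR-96-5p and 4.57 for miR-182-5p, the ranks 2, 7 and 8 among the tested miRNAs, whose median difference was 0.33. Chosen after their values were seen, the others of the first 10 were miR-1298-3p and miR-1298-5p, miR-10a-5p and miR-10b-5p, which are encoded in the Hox gene clusters, miR-448-3p, miR-504-5p and miR-34c-5p. miR-34c-5p, a marker of ciliated epithelium, was at 210 RPTM in spinal cord, 12.2 RPTM in occipital lobe and 1221 RPTM in lung. The sum of the ciliated markers found, miR-34c-5p and miR-449a-5p, was 211 RPTM in spinal cord and 14.3 RPTM in occipital lobe, while miR-449a-5p alone was at 0.837 and 2.17 RPTM. Their part in the difference was not tested. The summed epithelial markers were lower in spinal cord than in occipital lobe, as given above, whereas miR-375-3p was at 4107 RPTM in spinal cord and 581 RPTM in occipital lobe, and miR-203-3p at 12.1 and 6.95 RPTM.

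To ask whether the cluster differed between tissues, the counts of the 371 miRNAs whose mean reached 5 RPTM, with an SD of 1 or more, were compared with the quasi-likelihood test of edgeR, with Benjamini-Hochberg adjustment over all of them. The 3 miRNAs of the 5p arms passed this filter, and miR-183-3p, with at most 4.09 RPTM, did not. Each of 5 tissues was set against the mean of the other groups, where occipital lobe and spinal cord form neural tissue. These neural profiles count as replicates of the same group, although they are different tissues. The difference between them thus enters the spread behind every standard error and p-value of this fit. A member without a call is therefore not shown to be alike in the tissues compared. In addition, the mean of the epithelium-lined organs (small intestine, large intestine, kidney and lung) was set against neural tissue and against muscle. These comparisons share profiles and are not independent of each other.

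Of the cluster, only miR-182-5p passed the test, in small intestine and in the epithelium-lined organs against neural tissue. In small intestine, 12.1% of the tested miRNAs were called higher and 9.97% lower, and miR-182-5p was 1 of them, at a log2 fold change of 2.36 (SE, the standard error, 0.73, edgeR adjusted p = 0.044). miR-96-5p (2.28, SE 0.88, edgeR adjusted p = 0.096) and miR-183-5p (2.07, SE 0.85, edgeR adjusted p = 0.12) had changes of like size that did not pass. Both did pass when lung, occipital lobe or spinal cord was left out, with log2 fold changes between 2.42 and 3.21 without lung or spinal cord, and of 1.99 for miR-183-5p and 2.16 for miR-96-5p without occipital lobe. In the epithelium-lined organs against neural tissue, 26.1% of the tested miRNAs were called higher and 40.4% lower, and the log2 fold change of miR-182-5p was 2.61 (SE 1.03, edgeR adjusted p = 0.045). It was 2.40 for miR-96-5p (SE 1.21, edgeR adjusted p = 0.10) and 1.19 for miR-183-5p (SE 1.07, edgeR adjusted p = 0.34). The median of all tested miRNAs in this contrast was -0.65. Leaving out 1 profile also moved the number of miRNAs called in small intestine, from 82 of all tested to 25 without small intestine 1. With 3 members, a share of 1 called cannot be told apart from the backgrounds of 12.1% and 26.1% called higher. Both calls lie close to the threshold of 0.05.

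Both calls depended on the scaling and on single profiles, and the call against neural tissue also on the reads counted. With the total of valid reads as the library size and no TMM factors, the log2 fold change of miR-182-5p fell to 1.85 in small intestine (edgeR adjusted p = 0.083) and to 1.04 against neural tissue (edgeR adjusted p = 0.32), and that of miR-183-5p against neural tissue became -0.38. With reads of any 3′ end and with tails, the call against neural tissue was lost (2.35, edgeR adjusted p = 0.066). That in small intestine was kept (2.52, edgeR adjusted p = 0.035). With reads identical to the annotated sequence only, both were kept, at 2.66 in small intestine (edgeR adjusted p = 0.013) and 4.43 against neural tissue (edgeR adjusted p = 0.0018). DESeq2 also kept both, at 2.60 (DESeq2 adjusted p = 0.0095) and 2.72 (DESeq2 adjusted p = 0.0032). On the 8 numbered profiles, which leave out liver, lung and neural tissue, the value in small intestine was 1.25 (edgeR adjusted p = 0.051). The call in small intestine was kept in 5 of the 12 fits that left out 1 profile. It was lost without kidney 1, large intestine 1 or 2, liver, muscle 1, or small intestine 1 or 2, with log2 fold changes between 1.71 and 2.59. The call against neural tissue was kept in 6 of the 12, and was lost without kidney 2, either profile of large intestine or small intestine, or occipital lobe, with log2 fold changes between 1.55 and 2.69. A larger shift came from spinal cord. Without it, neural tissue was occipital lobe alone, assumed to vary like the other groups, and the log2 fold changes were 5.996 for miR-182-5p (edgeR adjusted p = 0.00011), 7.58 for miR-96-5p (edgeR adjusted p = 0.00075) and 5.97 for miR-183-5p (edgeR adjusted p = 0.00017), where that of miR-96-5p rests on 1 read of occipital lobe. Without occipital lobe they were 1.55, 1.29 and 0.09, none of which passed the test.

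In kidney, 16.7% of the tested miRNAs were called higher and 4.04% lower, and 0 of the 3 members. Their log2 fold changes were 1.74 for miR-183-5p (SE 0.87, edgeR adjusted p = 0.20), 1.70 for miR-182-5p (SE 0.75, edgeR adjusted p = 0.15) and 0.65 for miR-96-5p (SE 0.97, edgeR adjusted p = 0.72). Without spinal cord both miR-183-5p and miR-182-5p were called in kidney, at 2.51 (edgeR adjusted p = 0.00043) and 2.22 (edgeR adjusted p = 0.00069), and also without occipital lobe, at 1.53 (edgeR adjusted p = 0.017) and 1.48 (edgeR adjusted p = 0.015). In large intestine, 9.16% were called higher and 5.39% lower, and the values of the members were 0.93, 1.19 and 0.43 for miR-183-5p, miR-182-5p and miR-96-5p, with the lowest edgeR adjusted p at 0.33. Here too, miR-183-5p and miR-182-5p were called without spinal cord, at 1.86 (edgeR adjusted p = 0.0046) and 1.90 (edgeR adjusted p = 0.0024). In muscle, 25.6% were called higher and 12.7% lower. The members had log2 fold changes of 0.22, 0.22 and 0.73 in the same order, again without a call. In neural tissue, where 40.4% of the tested miRNAs were called higher and 27.5% lower, they had -0.10 for miR-183-5p, -1.64 for miR-182-5p and -1.93 for miR-96-5p, with the lowest edgeR adjusted p at 0.14. Without spinal cord, where occipital lobe stands alone, all 3 were called lower, at -4.84, -4.99 and -7.07 in the same order. In the epithelium-lined organs against muscle, with 11.3% called higher and 21.3% lower, the values were 0.91, 1.01 and 0.12 for miR-183-5p, miR-182-5p and miR-96-5p. In these 5 comparisons without a call, an unadjusted p under 0.05 was found for miR-182-5p in kidney alone, and DESeq2 called 1 member, miR-96-5p in neural tissue.

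**Figure D2:**
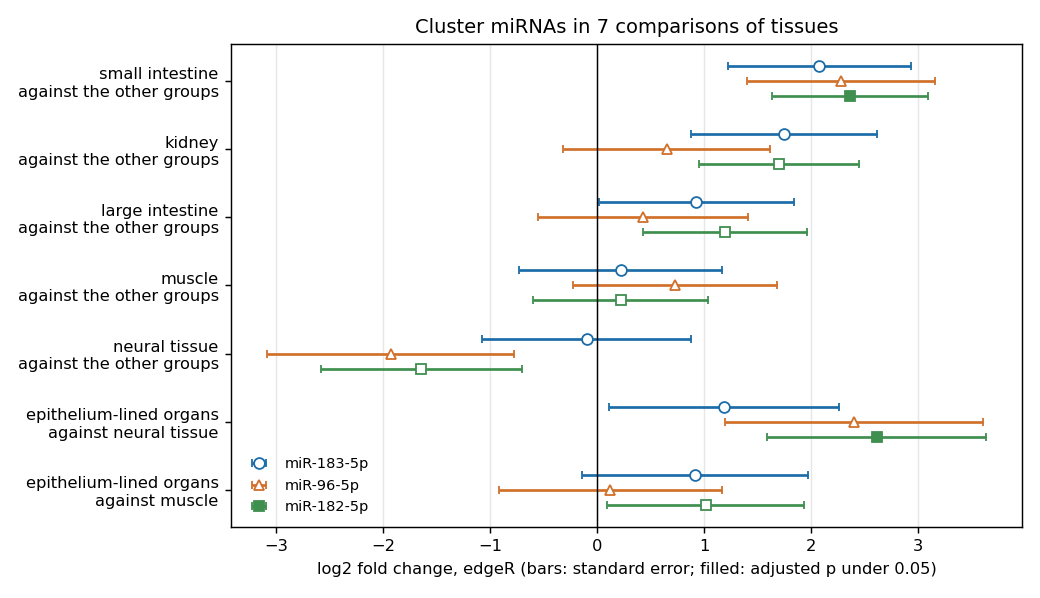
Log2 fold change of miR-183-5p (circles), miR-96-5p (triangles) and miR-182-5p (squares) in 7 comparisons from 1 edgeR fit of the 12 profiles, with bars of 1 standard error. Filled symbols passed the adjusted threshold of 0.05, which miR-182-5p did in small intestine, at 2.36, and in the epithelium-lined organs against neural tissue, at 2.61.

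Other miRNAs of epithelia and of neural cells mostly had larger log2 fold changes in the same fit. Of 7 epithelial miRNAs, 6 were called higher in the epithelium-lined organs than in neural tissue, with a median log2 fold change of 9.62 over the list, and the same number was called higher than in muscle (median 4.99, beside -0.04 over all tested miRNAs). miR-429-3p, a member of the miR-200 family that keeps epithelial cells from a mesenchymal state, had 11.50 against neural tissue (edgeR adjusted p = 1.7e-06). miR-375-3p, known from endocrine and mucosal epithelial cells, had 4.87 (edgeR adjusted p = 0.00062), and miR-205-5p did not pass (3.77, edgeR adjusted p = 0.999). Of the 5 neural miRNAs, all passed in neural tissue, with a median log2 fold change of 8.39. For miR-9-5p, which acts in neural progenitors, spinal cord had 261318 RPTM and occipital lobe 383871 RPTM. Beside these, miR-182-5p had 45109 RPTM in spinal cord and up to 41128 RPTM in muscle.

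The relative mml-miR-1271-5p, which shares the seed of miR-96-5p but comes from another hairpin, had another distribution. Its level was 155 and 1233 RPTM in muscle, 298 RPTM in spinal cord and 102 RPTM in occipital lobe. The other profiles had between 11.5 RPTM in small intestine 1 and 71.3 RPTM in small intestine 2. It was called higher in muscle, by 4.15 on the log2 scale (SE 0.66, edgeR adjusted p = 0.00082), and lower in the epithelium-lined organs than in muscle, with -4.33 (SE 0.76, edgeR adjusted p = 0.0015), a contrast in which 21.3% of the tested miRNAs were lower. In occipital lobe its 234 reads stood beside the 1 exactly matching read of miR-96-5p, or beside 9 reads when reads with tails are included.

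Since the members derive from adjacent hairpins, their ratios were compared within each profile. miR-182-5p made up between 97.3% (spinal cord) and 99.1% (large intestine 2) of the reads of the 3 miRNAs. The share of miR-183-5p was 2.61% in spinal cord (95% Wilson interval 2.51 to 2.70) and between 0.548% in liver and 1.23% in kidney 1 in the other profiles. Spinal cord was therefore the profile with the most miR-183-5p relative to miR-182-5p, outside the intervals of all others. These shares, and the ratios below, leave out reads that end more than 2 nucleotides from the annotated end. In spinal cord, 10.5% of the exact reads of miR-182-5p ended 3 nucleotides past it and 6.74% ended 4 past it. With reads of any 3′ end and with tails, 3383 reads of miR-183-5p stood beside 156663 of miR-182-5p there, a lower share than 2.61%. The share of miR-96-5p was highest in liver, at 0.365% (20 of 5473 reads, interval 0.237 to 0.564), and was 0.0227% in occipital lobe.

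The log2 ratio of miR-183-5p to miR-182-5p was -5.22 in spinal cord, -6.59 in occipital lobe, and -6.79 and -6.52 in the muscle profiles. In the 7 profiles of epithelium-lined organs it lay between -6.88 and -6.32. The mean was -6.69 ± 0.20 (SD, n = 7) in the epithelium-lined organs and -6.28 ± 0.72 (SD, n = 4) in neural tissue and muscle, a difference of -0.41 that did not pass an exact permutation test (two-sided p = 0.13, adjusted p = 0.29 over 9 tests). The smallest p that 7 against 4 profiles can give is 0.0030, and the 9 tests are those of the ratios, arms, 3′ ends and tails given here. For miR-96-5p to miR-182-5p, the means were -10.17 ± 0.48 (SD, n = 7) and -9.86 ± 0.59 (SD, n = 4), with an exact permutation p of 0.38 (adjusted 0.43). Without spinal cord the difference for miR-183-5p to miR-182-5p was -0.06, so that its size came from this profile.

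Levels of the 3 members moved together over the profiles. Pearson's r of log2(RPTM + 1) over the 12 profiles was 0.97 between miR-183-5p and miR-182-5p, 0.90 between miR-96-5p and miR-182-5p, and 0.86 between miR-183-5p and miR-96-5p. For each member, the other two had the highest r among all tested miRNAs. Next for miR-183-5p were miR-221-3p (0.75), miR-582-3p (0.71) and miR-708-5p (0.70). For miR-96-5p, they were miR-10a-5p (0.74), miR-221-3p (0.73) and miR-143-5p (0.71), and for miR-182-5p miR-221-3p (0.81), miR-155-5p (0.71) and miR-222-3p (0.70). These values describe 12 profiles that share libraries and depth, and liver and occipital lobe are low for all members.

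The 5′ end of miR-183-5p was not fixed. Besides reads from the annotated start, a second form began 1 nucleotide later, which moves bases 2 to 8 to a stretch that 0 of the annotated mature names have. Its most abundant exact read, with 2873 copies over the 12 profiles beside 3760 copies of the annotated sequence, is shown with bases 2 to 8 in capitals.
mml-miR-183-5p, start 1 nt later: aUGGCACUgguagaauucacug
mml-miR-183-5p, annotated start: uAUGGCACugguagaauucacug
Over all profiles, 6181 of 16090 reads (38.4%) with a start within 2 nucleotides of the annotated one began at the later position. The share was 53.9% in spinal cord (1822 of 3383 reads, 95% Wilson interval 52.2 to 55.5) and 51.7% in occipital lobe (31 of 60 reads, interval 39.3 to 63.8). It was 41.9% in lung, 38.5% and 34.8% in kidney, 36.7% and 32.6% in small intestine, 28.4% and 26.4% in muscle 2 and muscle 1, and 29.7% and 23.4% in large intestine. Liver had 20.8%, from 10 of 48 reads (interval 11.7 to 34.3). The neural profiles thus had the highest shares, and the interval of spinal cord lies above those of all profiles except occipital lobe, whose interval overlaps those of lung and kidney 1. No test between groups was made of this share.

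**Figure D3:**
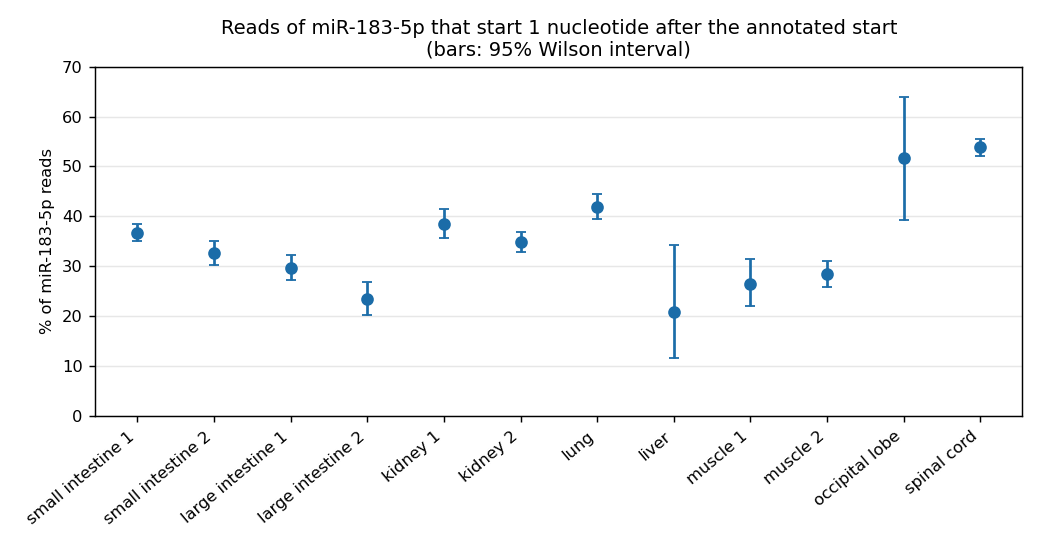
Share of miR-183-5p reads that begin 1 nucleotide after the annotated start in each of the 12 profiles, in percent, with 95% Wilson intervals as bars. Spinal cord (53.9%) and occipital lobe (51.7%) are the highest and liver (20.8%) is the lowest, with wide intervals for occipital lobe and liver.

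The start of the other members was nearly fixed. Of 1524829 reads of miR-182-5p, 1398 (0.0917%) began 1 nucleotide later, with shares between 0.0373% and 0.163% over the profiles. For miR-96-5p, 0 of 1651 reads did, which a Wilson interval bounds at 0.232%. The variable start was thus found in the member whose first base is followed by A, while the other two begin with 3 U.

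The 3′ ends of miR-182-5p and miR-96-5p mostly did not fall on the annotated end. The most abundant exact reads are shown with the bases past the annotated end in capitals.
mml-miR-182-5p, most abundant read: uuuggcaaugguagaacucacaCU
mml-miR-96-5p, most abundant read: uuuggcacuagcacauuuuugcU
The longer form of miR-182-5p had 578626 copies in the 12 profiles against 210037 of the annotated sequence, and that of miR-96-5p 690 against 117. For miR-183-5p the annotated sequence was itself the most abundant. The letters that follow the annotated end of miR-182-5p and 1 further base in the hairpin are those with which the 3′ adapter of the libraries begins, so that a longer end and an adapter remnant cannot be told apart there. The U after the annotated end of miR-96-5p is likewise the first letter of the adapter, and the same holds for its longer end. The annotated sequence of miR-183-5p itself ends in UG, the letters with which the adapter begins. Its annotated end and a shorter end with an adapter remnant therefore cannot be told apart either.

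Of the exactly matching reads of miR-182-5p, those 2 nucleotides longer than annotated made up 63.6% in spinal cord, 54.1% and 42.7% in large intestine 2 and 1, 53.7% and 44.4% in small intestine 1 and 2, and 51.1% and 52.6% in muscle. Liver had 42.8%, the kidney profiles 38.9% and 33.7%, lung 37.5% and occipital lobe 26.6%. The annotated end itself ranged from 5.95% in spinal cord to 28.0% in lung, with 15.8% in occipital lobe and 7.94% and 6.66% in muscle. Spinal cord and occipital lobe were thus the extremes for the longer end. The mean 3′ end was 1.20 ± 0.31 nucleotides past the annotated one in the epithelium-lined organs (SD, n = 7) and 1.46 ± 0.54 in neural tissue and muscle (SD, n = 4), which did not differ beyond the spread (exact permutation p = 0.31, adjusted 0.39).

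For miR-96-5p, the end 1 nucleotide past the annotated one made up 88.9% and 79.8% of the exact reads in muscle, 78.4% in spinal cord, 86.1% and 51.8% in large intestine 2 and 1, 76.8% and 48.4% in kidney, and 62.2% and 55.3% in small intestine. Lung differed from these, with 24.8% at this end and 73.3% (74 of 101 reads) at the end 1 nucleotide short. In liver, 12 of 20 reads had the short end. The mean 3′ end was 0.28 ± 0.41 nucleotides in the epithelium-lined organs (SD, n = 7) and 0.76 ± 0.08 in spinal cord and muscle (SD, n = 3, as occipital lobe had under 20 reads). The difference of -0.48 did not pass the exact permutation test (p = 0.083, adjusted 0.29). For miR-183-5p, the annotated end held between 29.5% and 59.3% of the exact reads and the end 1 nucleotide short between 27.2% and 58.1%, and the mean 3′ end was -0.49 in both groups (exact permutation p = 0.98).

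**Figure D4:**
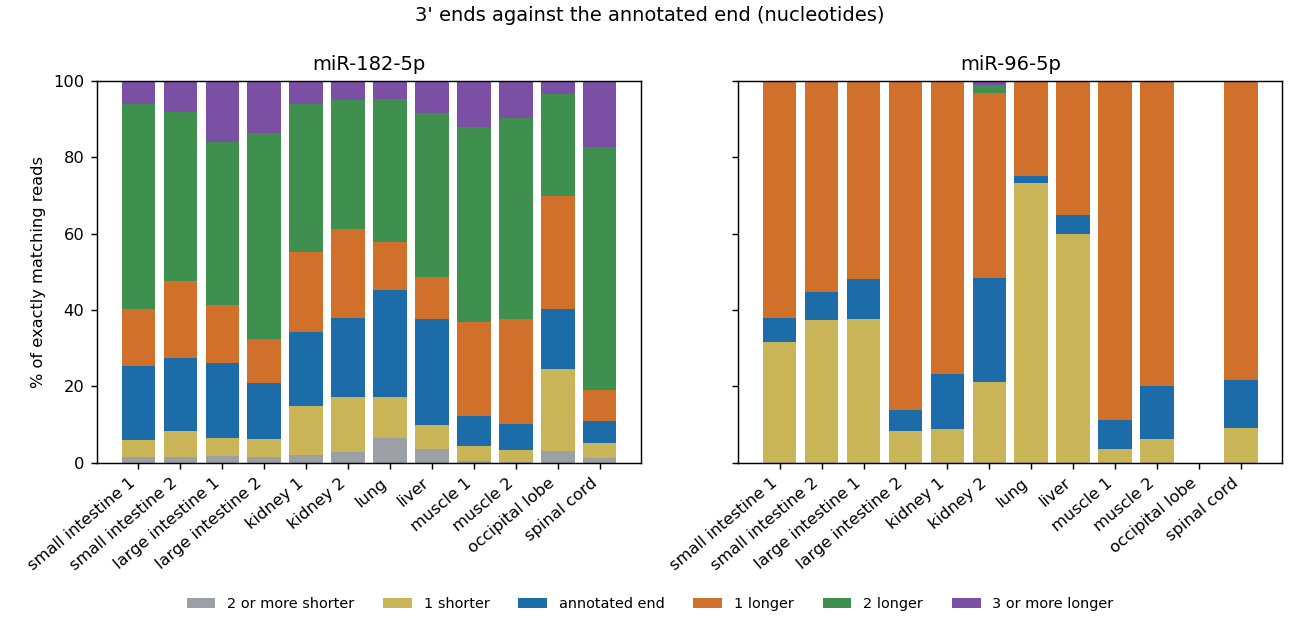
Share of exactly matching reads of miR-182-5p (left) and miR-96-5p (right) by the position of their 3′ end, in nucleotides from the annotated end, for each of the 12 profiles. The end 2 nucleotides longer holds from 26.6% (occipital lobe) to 63.6% (spinal cord) of miR-182-5p, and for miR-96-5p lung and liver have mostly the end 1 shorter (occipital lobe is not drawn, with 1 read).

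Many reads carried 1 or 2 bases at the 3′ end that the hairpin does not encode. Over the 12 profiles these were 19.6% of the reads of miR-182-5p, 32.2% of those of miR-96-5p and 19.95% of those of miR-183-5p. A single C was the most frequent addition over the 12 profiles together for each of them, at 14.6%, 17.9% and 10.8% of their reads in the same order. The most abundant reads with a C tail are shown with the tail in capitals.
mml-miR-183-5p, C tail: uauggcacugguagaauucacC
mml-miR-96-5p, C tail: uuuggcacuagcacauuuuugcC
mml-miR-182-5p, C tail: uuuggcaaugguagaacucacacC
They had 1082, 294 and 212948 copies. In each, the C stands where the hairpin has U, and this held for 97.4% of all C tails of miR-183-5p, 100% of those of miR-96-5p and 96.3% of those of miR-182-5p. For the other tested miRNAs with at least 20 reads, 255 to 334 per profile, between 73.1% and 95.9% of the C tails stood before a templated U. An added C and a read of U as C at the last base cannot be told apart in these data.

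The share of miR-182-5p reads with a C tail was 5.96% and 16.9% in the kidney profiles, 27.3% and 7.55% in large intestine, 11.9% and 15.4% in small intestine, 11.99% and 10.97% in muscle, and 17.6% in lung. It was 18.5% in liver, 12.6% in occipital lobe and 10.8% in spinal cord. The profiles of 1 tissue thus differed by more than many tissues did. For miR-183-5p the share lay between 5.53% (kidney 1) and 22.9% (liver, 11 of 48 reads), and for miR-96-5p between 6.92% (spinal cord) and 43.7% (large intestine 1). The median C share of the other tested miRNAs moved with these values, from 3.75% in large intestine 2 and 4.13% in kidney 1 to 8.63% in kidney 2 and 10.97% in large intestine 1, and its part in the values of the members was not tested. The members were above this median in every profile in which they had at least 20 reads, which was 12 of 12 for miR-183-5p and miR-182-5p and 11 of 11 for miR-96-5p. A median has as many miRNAs above it as below. Of the other tested miRNAs, between 39.5% and 69.1% per profile had a C share of at least 5%, so that such shares are not particular to the cluster.

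**Figure D5:**
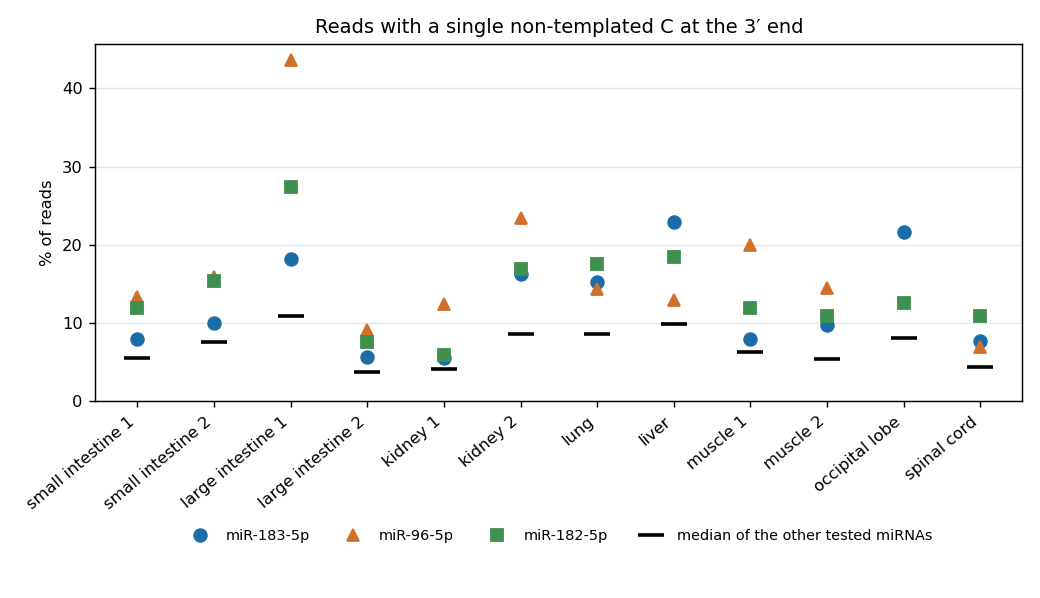
Share of reads with a single non-templated C at the 3′ end for miR-183-5p (circles), miR-96-5p (triangles, profiles with at least 20 reads) and miR-182-5p (squares), in percent, in each of the 12 profiles. The black bars are the median of the other tested miRNAs, from 3.75% in large intestine 2 to 10.97% in large intestine 1, and every symbol lies above the bar of its profile.

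The share of reads with any tail did not separate the tissue groups. For miR-96-5p it was 35.0% ± 10.4 in the epithelium-lined organs (SD, n = 7) and 18.98% ± 4.14 in spinal cord and muscle (SD, n = 3), with an exact permutation p of 0.058 (adjusted 0.29). The values were 21.8% ± 6.16 (SD, n = 7) and 15.8% ± 7.36 (SD, n = 4) for miR-183-5p (exact permutation p = 0.17, adjusted 0.31). For miR-182-5p they were 19.9% ± 6.66 (SD, n = 7) and 15.96% ± 0.956 (SD, n = 4), with an exact permutation p of 0.31 (adjusted 0.39). None of the 9 tests passed, 0 of them had an unadjusted p under 0.05, and the lowest adjusted p was 0.29.

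Single base changes inside the mature miRNAs were rare. Reads with 1 mismatch, leaving out the first base and the last 2, gave 478 combinations of site, change and profile with at least 10 changed reads, and 0 of these reached a level of 5%. The highest level computed was 1.01%, an A-to-C change in the last annotated base of miR-182-5p in spinal cord. Reads too short for a change at this base to be counted stayed among the covering reads. Levels at the last annotated bases are thus too low, and the highest level and its profile are uncertain. The highest level of an A-to-G change, the form in which A-to-I editing is read, was 0.711% in the seed of miR-183-5p in small intestine 2 (11 of 1547 reads, 95% Wilson interval 0.398 to 1.27). Levels this low cannot be told apart from sequencing error here.

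Reads from the 3p arms were very few. For mml-mir-183, 48 of 13030 exactly matching reads (0.368%, 95% Wilson interval 0.278 to 0.488) came from the 3p arm, in 10 of 12 profiles, with 0 reads in liver and occipital lobe, where the hairpin had 31 and 44 reads in all. The most abundant of these reads began 1 nucleotide after the annotated miR-183-3p, and 0 reads were identical to the annotated sequence.
mml-miR-183-3p, annotated: gUGAAUUAccgaagggccauaaa
mml-mir-183 3p arm, most abundant read: uGAAUUACcgaagggccauaaa
The most abundant form had 32 copies. Of the 48 reads, 43 began 1 nucleotide after the annotated start and 4 at it, so that most but not all reads carried the shifted seed. The share of the 3p arm was 0.42% ± 0.16 in the epithelium-lined organs (SD, n = 7) and 0.24% ± 0.17 in neural tissue and muscle (SD, n = 4), with an exact permutation p of 0.13 (adjusted 0.29). No minimum of reads was set here. The shares rest on 0 reads of miR-183-3p in occipital lobe to 10 in small intestine 1, so that counting error enters these SDs. For mml-mir-96, 0 of 1120 exact reads came from the 3p arm, which allows a share of up to 0.268% at the floor of 3 reads, or 0.342% by the Wilson interval. For mml-mir-182, which like mml-mir-96 has no 3p miRNA in the annotation as read here, 9 of 1229281 exact reads did (0.000732%, 95% Wilson interval 0.000385 to 0.00139). In all 3 hairpins, the mature miRNA was thus read almost wholly from the 5p arm.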

How the data were processed

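Small RNA libraries of total RNA were sequenced by the authors for 12 profiles, of which all were used. Reads with sequencing scores of at least 30 over their first 25 nucleotides were kept by the authors, who removed the 3′ adapter, and deposited, without normalization, the count of each unique sequence of at least 18 nucleotides. Sequences were matched exactly to the pre-miRNAs of the study's annotation, from which sequences alone were taken (832 hairpins, 1389 mature names). Reads were assigned to a mature miRNA whose annotated ends lay within 2 nucleotides of both of theirs, and RPTM values are relative to all valid reads. Where hairpins on opposite strands carry the same name but for letter case, the marker miR-499-5p was taken from mml-mir-499. edgeR 4.0.16 in R 4.3.3 (quasi-likelihood F test, TMM factors between 0.623 and 2.49, 7 groups, 12 profiles) was used for levels, and adjusted p-values cover 371 miRNAs. DESeq2 1.42.0 was an alternative, as were another scaling, filter, assignment, pseudocount and minimum of reads, a replicate block, and leaving out each profile. Ratios, arms, ends and tails were compared with exact permutation tests, two-sided (scipy 1.17.1), and profiles with under 20 reads were left out of the tests of ends and tails. Intervals of shares are Wilson intervals, and cover counting error only.

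On simulated data for muscle, the test recovered 100% of 74 miRNAs changed 8-fold among 371, with 5 false calls. These data had the same fixed spread for all miRNAs and no other difference between tissues. The spread of the members was not used, so that the recovery does not measure the power of the test for them. The labels do not say that a replicate number marks an animal. The members and lists were chosen with earlier results of these data known. Named are both arms of the members, their seed relatives, fixed lists of epithelial and neural miRNAs, and the 5 tested miRNAs with the highest correlation to each member.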

Additional observations from a re-analysis of the deposited data

Results flagged for a closer look

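Of 24 groups of 4 or 7 profiles examined for an extreme value, 1 had a profile far from the others, where chance would give about 1 in 20. The share of miR-183-5p reads with a non-templated tail was 26.7% in occipital lobe (16 of 60 reads), while spinal cord and the muscle profiles lay between 10.4% and 13.1%. The median share of the other tested miRNAs was also highest in occipital lobe among these 4 profiles, at 27.3%, beside 19.01% in spinal cord and 23.01% and 21.3% in muscle, and its part in the value was not tested. In addition, 9 exact reads were found on the 3p arm of mml-mir-182, for which the annotation as read here gives no mature miRNA, in 4 of 12 profiles. The most abundant had 6 copies and is shown with bases 2 to 8 in capitals.
mml-mir-182 3p arm: uGGUUCUAgacuugccaacu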

How the results depend on the processing

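Apart from leaving out a profile, 134 alternative values kept their direction and side of the threshold, 25 changed sign, 13 came past the threshold and 5 fell short of it. The values that changed sign did not pass the threshold in either setting, except miR-182-5p in muscle on the 8 numbered profiles, which passed there. The cause of these changes was not tested. Values below are log2 fold changes unless named otherwise.

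With total valid reads and no TMM factors, miR-96-5p had -0.020 in kidney, -0.23 in large intestine and -0.085 in the epithelium-lined organs against muscle, miR-183-5p had 1.38 in neural tissue and -0.38 in the organs against neural tissue, and miR-182-5p had 1.85 in small intestine (edgeR adjusted p = 0.083) and 1.04 in the organs against neural tissue (edgeR adjusted p = 0.32). Without the filter, small intestine gave 2.28 for miR-183-5p (edgeR adjusted p = 0.046) and 2.47 for miR-96-5p (edgeR adjusted p = 0.039), muscle -0.022 for miR-183-5p and -0.014 for miR-182-5p, and neural tissue 0.13 for miR-183-5p. With DESeq2, miR-96-5p had 2.48 in small intestine (adjusted p = 0.021), -1.99 in neural tissue (adjusted p = 0.040) and 2.51 in the organs against neural tissue (adjusted p = 0.011). With identical reads only, which drops the longer 3′ forms, miR-182-5p had 1.97 in kidney (edgeR adjusted p = 0.041), -1.09 in muscle, -3.30 in neural tissue (edgeR adjusted p = 0.0061) and 2.54 in the organs against muscle (edgeR adjusted p = 0.035), and the difference in the log2 ratio of miR-96-5p to miR-182-5p was -2.49 (exact permutation test, adjusted p = 0.027). In the main counts that difference was -0.30, and a pseudocount of 0.1 in place of 1 turned it to 0.054. The smaller pseudocount was not tried on identical reads. With any exact 3′ end and tails added, miR-96-5p had 2.48 in small intestine (edgeR adjusted p = 0.037) and 2.55 in the organs against neural tissue (edgeR adjusted p = 0.050), miR-182-5p 2.35 there (edgeR adjusted p = 0.066) and miR-183-5p -0.060 in muscle.

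The numbers 1 and 2 were not taken as paired, since the labels do not say that they mark an animal. Deviations of equal numbers correlated between -0.14 and 0.15 over the 6 pairs of tissues. On the 8 numbered profiles, with a replicate block and without it, miR-96-5p had -0.56 and -0.50 in kidney, -0.32 and -0.57 in large intestine, and -0.70 and -0.47 in muscle. For miR-183-5p, large intestine gave -0.18 and -0.26 and muscle -1.39 and -1.30. For miR-182-5p, small intestine gave 1.34 and 1.25 (edgeR adjusted p = 0.053 and 0.051), large intestine -0.0089 and -0.099, muscle -1.52 and -1.44, and the organs against muscle 1.52 and 1.44 (edgeR adjusted p = 0.035 in each case).

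Leaving out 1 profile at a time, miR-182-5p ranged from 1.71 to 3.02 in small intestine, 0.68 to 2.29 in kidney, 0.51 to 1.90 in large intestine, -0.73 to 0.79 in muscle, -4.99 to -0.54 in neural tissue and 1.55 to 5.996 in the organs against neural tissue. The ranges of miR-183-5p were 1.23 to 2.97, 0.89 to 2.51, 0.05 to 1.86, -0.94 to 0.86, -4.84 to 1.04 and 0.089 to 5.97 in the same order. Those of miR-96-5p were 1.95 to 3.21, -0.10 to 1.502, -0.33 to 1.42, -1.21 to 1.53, -7.07 to -0.79 and 1.29 to 7.58, and -0.68 to 2.06 in the organs against muscle. The difference in the mean 3′ end of miR-183-5p ranged from -0.14 to 0.072 nucleotides.

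The number of miRNAs called in large intestine, 54, became 100 without TMM factors and 99 with DESeq2, and with identical reads only those in kidney and small intestine fell from 77 to 50 and from 82 to 48. Leaving out 1 profile moved such counts further, in kidney to 34 without kidney 1 and 35 without kidney 2, in small intestine to 25, 27 and 45 without small intestine 1 or 2 or large intestine 2, in large intestine to 20 and 26 without large intestine 1 or 2, and without muscle 2 from 142 to 84 in muscle and from 121 to 67 in the organs against muscle. Depth limits miR-96-5p most, with 1 exact read in occipital lobe and 20 in liver, and the 3p arms.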
